A study of Mus musculus with 22 samples.

Results

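The 36 genes described here are the components, receptors and regulators of the complement system named in one list, taken by symbol, and all 36 were found among the 52636 genes counted. They comprise 8 genes of the classical pathway, 4 of the lectin pathway, 4 of the alternative pathway with C3, 7 of the terminal pathway, 6 receptors and 7 regulators. Complement is a set of plasma and membrane proteins that marks targets for uptake, recruits leukocytes and can form a pore in a membrane. The classical pathway starts with C1q on an antibody or a damaged surface, the lectin pathway with a sugar-binding lectin, and the alternative pathway with the spontaneous turnover of C3. All of them split C3, after which C5 to C9 build the membrane attack complex, and receptors and regulators on cells read or stop the cascade. Liver makes most plasma complement, while tissue macrophages are a known source of C1q and properdin and fibroblasts of C1r, C1s and C3.

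The 22 mouse libraries fell by title into 6 groups, all without treatment: renal capsule tissue, young and aged (3 libraries each), macrophages of the renal capsule, macrophages of the kidney, young RCAMs and aged RCAMs (4 each). The renal capsule is the fibrous sheath around the kidney. RCAM is not spelled out in the labels, which give its cell type as whole tissue, yet the macrophage genes stood at macrophage level there: 10 listed macrophage markers summed to 23027 to 26423 CPM (counts divided by the library total and multiplied by 1000000) over the 8 RCAM libraries. The same sum was 21739 to 23288 CPM for capsule macrophages, 16563 to 17233 CPM for kidney macrophages and 1278 to 6862 CPM for capsule tissue. Strain, genotype, sex and age in months are not stated, nor the age of the capsule and kidney macrophages. No label says that replicates are separate animals. The p-values below therefore speak of the spread among these libraries alone, part or all of which may be technical.

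Library totals ran from 20586795 to 54421764 counts, and those of capsule tissue from 20586795 to 43230225. A count of 0 therefore allowed at most 0.0551 to 0.146 CPM, from 3 counts in a library, which covers counting error only. A 100 ng stranded mRNA kit and a 2 ng low-input kit are both described for every sample, so which kit made which library is not stated. The kit therefore cannot be told apart from a difference between any of the groups, tissue against macrophages included. Replicate 2 of both capsule tissue groups carried adrenal transcripts: 6 adrenal cortex markers summed to 188 CPM in the young and 6426 CPM in the aged library, against 3.21 to 14.5 CPM in the other 4. For the age comparison in tissue, values without both of these libraries are given beside those of all 6.

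C1qb and C1qc are among the most abundant members in every macrophage library below, while properdin (Cfp) and C6 separate capsule from kidney macrophages, and the 250 bases before their RefSeq start sites (GRCm38.p6) are shown 5′ to 3′ for that reason. Capitals mark the letters GAGGAA, the core bound by the macrophage factor PU.1, and TGCTGA, a half-site of the Maf recognition element, on either strand.
C1qb promoter, chr4:136886201-136886450, minus strand: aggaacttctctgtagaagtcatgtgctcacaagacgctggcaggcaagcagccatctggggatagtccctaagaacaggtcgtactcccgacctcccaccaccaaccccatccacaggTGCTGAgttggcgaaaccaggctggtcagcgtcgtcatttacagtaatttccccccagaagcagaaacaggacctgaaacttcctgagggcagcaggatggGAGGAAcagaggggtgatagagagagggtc
C1qc promoter, chr4:136892915-136893164, minus strand: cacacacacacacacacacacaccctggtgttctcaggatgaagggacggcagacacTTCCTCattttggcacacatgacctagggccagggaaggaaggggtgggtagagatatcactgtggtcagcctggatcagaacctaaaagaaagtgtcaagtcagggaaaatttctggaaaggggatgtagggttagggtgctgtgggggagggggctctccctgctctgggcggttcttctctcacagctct
Cfp promoter, chrX:20931556-20931805, minus strand: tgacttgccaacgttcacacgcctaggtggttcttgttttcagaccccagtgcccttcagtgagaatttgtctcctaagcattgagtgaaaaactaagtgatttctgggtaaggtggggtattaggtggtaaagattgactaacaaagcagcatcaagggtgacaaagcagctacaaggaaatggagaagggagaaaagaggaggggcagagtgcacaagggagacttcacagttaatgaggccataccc
C6 promoter, chr15:4726960-4727209, plus strand: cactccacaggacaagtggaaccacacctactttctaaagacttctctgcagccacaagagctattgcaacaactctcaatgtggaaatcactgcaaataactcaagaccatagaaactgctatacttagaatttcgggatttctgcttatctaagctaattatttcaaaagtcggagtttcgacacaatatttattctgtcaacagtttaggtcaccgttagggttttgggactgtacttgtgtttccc
C1qb held GAGGAA at 30 and TGCTGA at 131 bases before the start, and C1qc held GAGGAA on the opposite strand at 193 bases, while neither set of letters lay in the Cfp or C6 window. Of 32851 RefSeq windows of this length, 23.3% held GAGGAA and 16.1% held TGCTGA, on either strand and counted separately. Of the 27 members with a RefSeq window, 6 held GAGGAA and 9 held TGCTGA. A match describes the letters only. Clu, C4a, Cfb, C1qa, C2, Serping1, Cfi, C4b and Masp1 had no entry in the table. On GRCm38, C4b (ENSMUSG00000073418, 34728380 to 34743882) and C3 (ENSMUSG00000024164, 57203970 to 57228136) lie on chromosome 17, C6 (ENSMUSG00000022181, 4727175 to 4814967) and C7 (ENSMUSG00000079105, 4988762 to 5063740) on chromosome 15, and Cfp (ENSMUSG00000001128, 20925454 to 20931555) on chromosome X.

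Levels across the 6 groups were compared first. Different complement genes dominated tissue and macrophages, as the heat map of all members shows. In young capsule tissue the alternative pathway with C3 made up 74.8% ± 9.2 (SD, n = 3) of the summed CPM of the 36 members, and the classical pathway 12.4% ± 5.2. In capsule macrophages the classical pathway made up 75.1% ± 0.48 (n = 4) and the alternative pathway with C3 13.9% ± 0.75. Kidney macrophages were still more one-sided, at 89.4% ± 0.51 classical and 1.30% ± 0.057 alternative. The young and aged RCAM libraries, at 75.3% ± 0.53 and 72.9% ± 1.4 classical, lay beside the capsule macrophages.

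**Figure D1:**
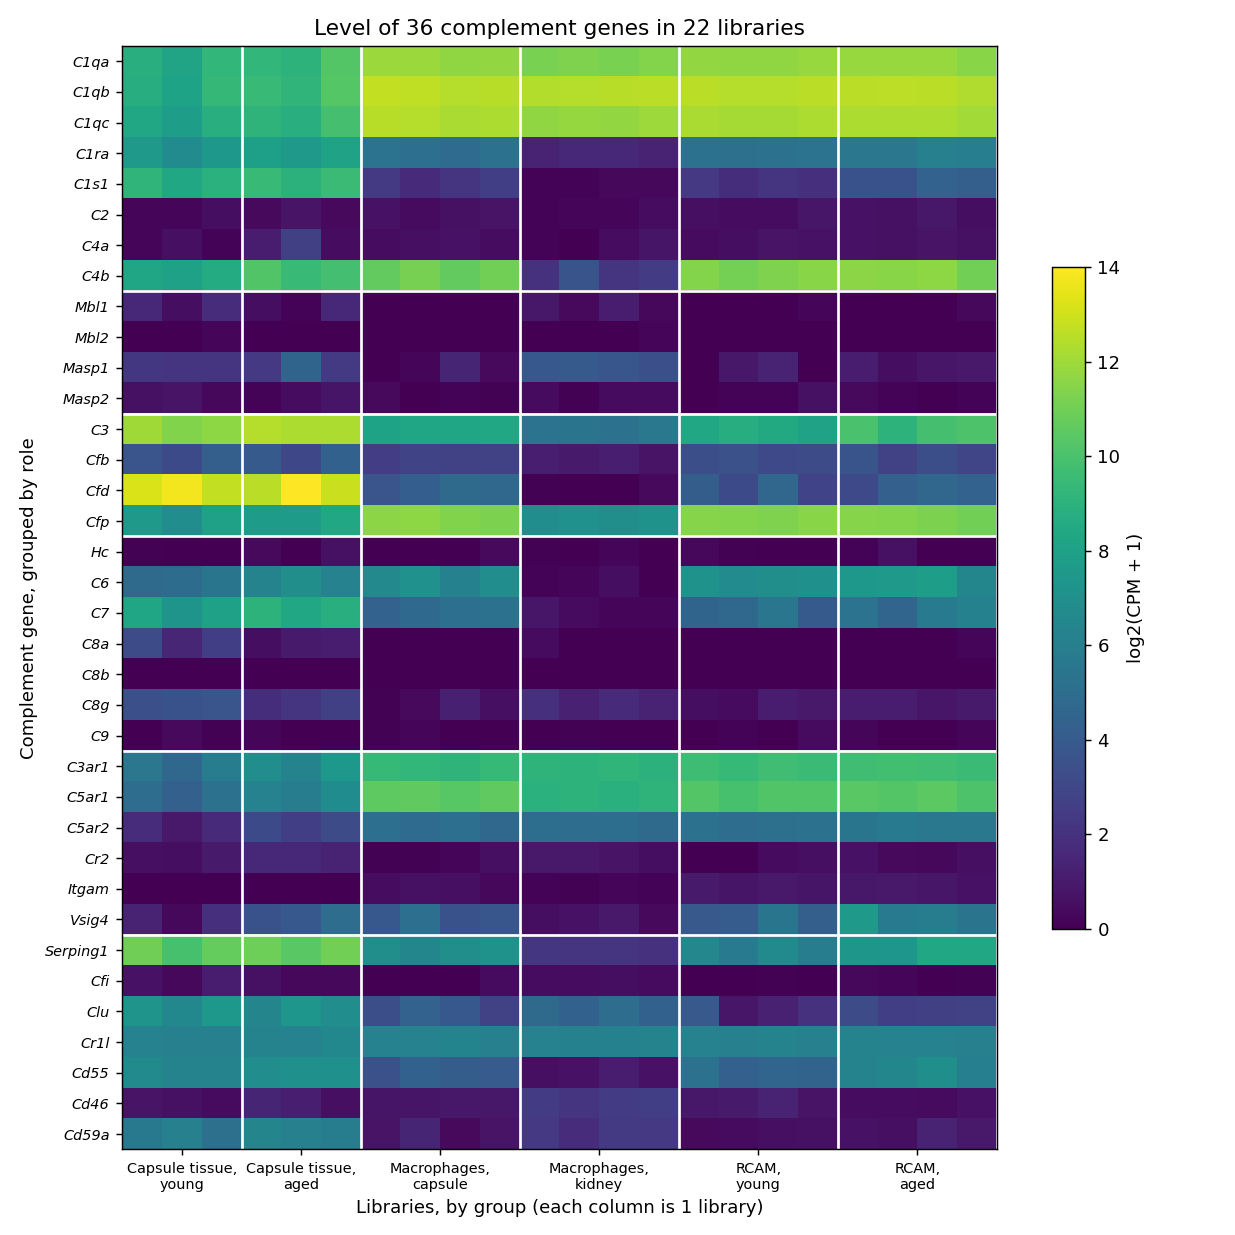
Heat map of the level of the 36 complement genes, as log2(CPM + 1), with 1 column per library and rows grouped by role (white lines separate groups and roles). The C1q chains, C4b and Cfp are bright in capsule macrophages and RCAMs, C4b and C6 are dark in kidney macrophages, and Cfd, C3 and Serping1 are brightest in capsule tissue.

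Per kilobase of merged annotated exon, the order of members differed between tissue and macrophages. This scale sets genes beside each other, but that length need not be the length of the transcript made. In young capsule tissue, adipsin (Cfd, the protease that activates the alternative pathway and a known product of fat cells) led at 11058 ± 3921 CPM per kb, followed by the C1 inhibitor Serping1 at 670 ± 228 and C3 at 642 ± 141. C1qa (431 ± 160) and C1qb (411 ± 165) came next, so Serping1 and C3, and likewise C1qa and C1qb, did not differ beyond their spread, whereas C3 and C1qa stood further apart than either SD. In capsule macrophages the order was C1qb (5683 ± 583 CPM per kb), C1qa (3469 ± 311), C1qc (2751 ± 228), Cfp (1615 ± 191) and C5ar1 (572 ± 41.1). Kidney macrophages kept the 3 C1q chains at the top but had C5ar1 (199 ± 14.8 CPM per kb), C3ar1 (127 ± 7.36) and Cfp (74.0 ± 7.23) next. Within these lists of macrophage levels, neighbours stood further apart than their SDs.

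C1q is assembled from equal numbers of A, B and C chains, whose genes C1qa, C1qb and C1qc lie side by side on the minus strand of chromosome 4 (GRCm38, 136880129 to 136898803). Per kb of merged annotated exon, their levels were not in equal shares. That length is 1040 bases for C1qa, 1088 for C1qb and 1931 for C1qc, and need not be the length of the transcript made. By CPM without a length, the young RCAM means were 3428 for C1qa, 5845 for C1qb and 4739 for C1qc. The order of C1qa and C1qc therefore depends on the length used. Of the summed C1q level per kb in young RCAMs, C1qa held 29.6% ± 0.85, C1qb 48.3% ± 0.87 and C1qc 22.1% ± 0.37 (SD, n = 4). Capsule macrophages (29.2, 47.7 and 23.1%) and aged RCAMs (29.7, 48.1 and 22.2%) had nearly those proportions. In kidney macrophages C1qb took a larger share, 55.2% ± 1.1, and C1qa a smaller one, 25.4% ± 0.63, with no overlap with any capsule macrophage or RCAM library. Young capsule tissue stood apart from all macrophage libraries with 42.7% ± 0.35 C1qa and 40.4% ± 1.0 C1qb. These shares are a description and were not tested.

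Of the 36 members, 14 had a mean of at least 1 CPM in every group: C1qa, C1qb, C1qc, C1ra, C4b, C3, Cfb, Cfp, C3ar1, C5ar1, C5ar2, Serping1, Clu and Cr1l. Another 8 reached it in no group, namely C2, Mbl2, Masp2, Hc (the gene for C5), C8b, C9, Itgam and Cfi. The late components were thus uneven: C6 and C7, which join C5b to start the pore, were well above the floor in tissue, whereas C8b was at 0 counts in 21 of 22 libraries and C9, which forms the ring of the pore, was at most 0.314 CPM. Mean CPM reached 1 for 25 and 26 members in young and aged tissue, 20 in capsule macrophages, 18 in kidney macrophages and 21 in each RCAM group. Liver markers (Alb, Apoa1, Ttr, Serpina1a, Ahsg and Fga) summed to at most 47.9 CPM in any library.

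Some members cannot be read at face value because of how genes overlap. Itgam, the alpha chain of complement receptor 3, shares 3450 of its 5024 exon bases (chromosome 7, 128062640 to 128118491) with the gene Gm49368 on the same strand, and its count was at 0 in all 6 tissue libraries and at most 0.992 CPM elsewhere. Its partner chain Itgb2 averaged 52.6 to 1101 CPM over the same groups. C2 shares 1656 of 3872 exon bases, and Cfb 2246 of 2825, with Gm20547 on the same strand of chromosome 17, and Masp2 shares 1817 of 3307 with Tardbp on the opposite strand. C1s1 shares 576 of 3129 exon bases with Gm16567 and Cd46 1079 of 7603 with A330023F24Rik, both on the opposite strand, and whether reads were counted by strand is not stated. Gm16567 was at 0 counts in all 16 macrophage and RCAM libraries, whereas A330023F24Rik was at 2.15 to 4.68 CPM in capsule and 6.31 to 10.9 CPM in kidney macrophages. C4a and C4b, and the mouse pairs C1ra and C1rb, C1s1 and C1s2, Cd55 and Cd55b, and Cd59a and Cd59b, are close copies, and how reads matching more than one gene were counted is not stated. The values of Itgam, C2, Cfb, Masp2 and Cd46 are therefore uncertain, and no fold is given for Itgam.

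Macrophages of the capsule and of the kidney were compared next, to see which complement genes differed between the libraries of these sites. The capsule macrophage libraries had far more RNA for C4b, C6, C7, Cfd, Cfp, C1ra, C1s1, Serping1, Vsig4 and Cd55 than the kidney ones. They had moderately more for C1qa, C1qc and C5ar1. Of 30 members tested, 20 were higher, among them the uncertain Itgam, C2 and Cfb, and 4 lower in the capsule (edgeR quasi-likelihood test, Benjamini-Hochberg adjusted p under 0.05 over 15701 genes). Among all genes tested, 27.3% were higher and 28.2% lower. With unscaled library totals the share of called genes that were higher fell from 49.2% to 35.1%. The groups did not overlap for 16 members that were higher and 5 that were lower, where 18.9% and 35.1% of all genes did not. The median log2 fold change of the 30 members was 1.18, against -0.03 for all genes tested.

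**Figure D2:**
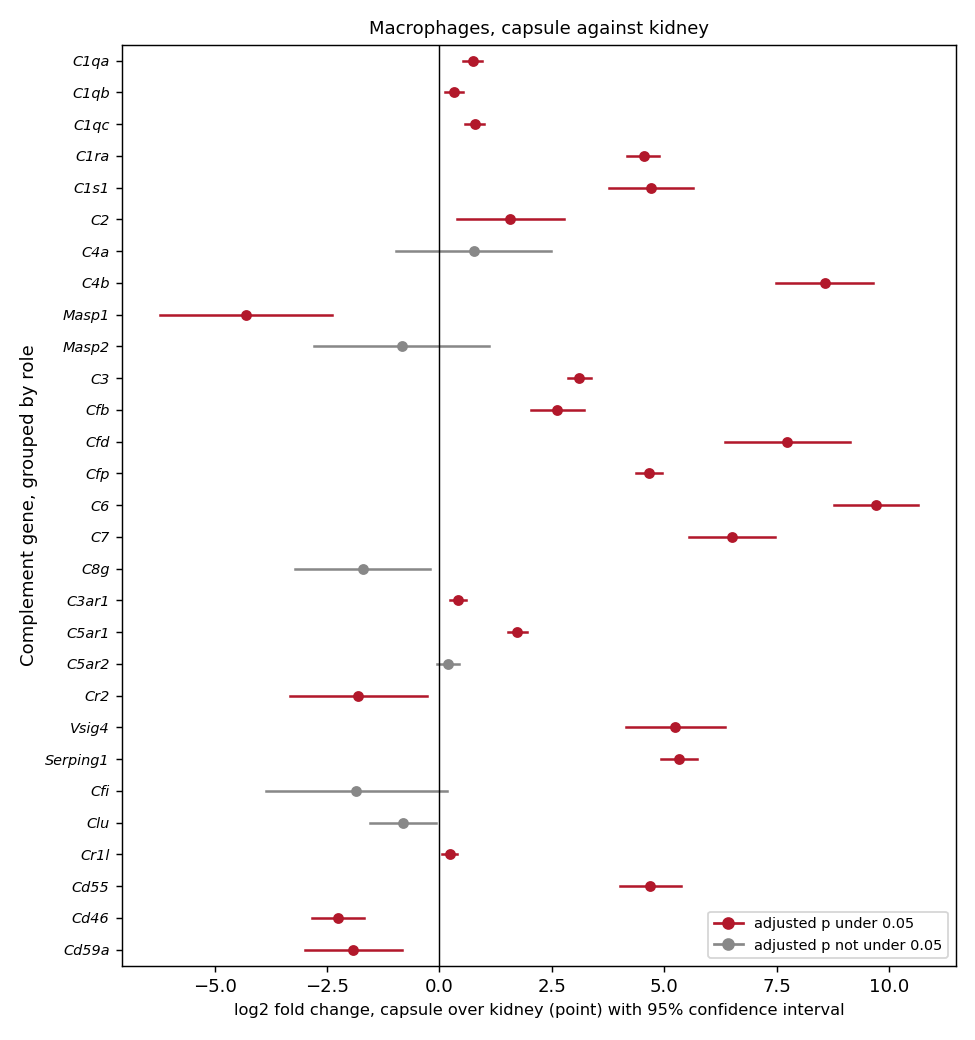
Log2 fold change of 29 tested complement genes, capsule over kidney macrophages (x axis), with the 95% confidence interval as a line and genes grouped by role on the y axis; red marks an adjusted p under 0.05. C6, C4b and Cfd lie farthest to the right, and Masp1, Cd46, Cd59a and Cr2 are the red points left of 0.

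In the classical pathway 7 of 8 tested genes rose. C4b, the precursor of the C4 fragments that C1s cuts, was at 1600, 2216, 1578 and 2062 CPM in the capsule macrophage libraries and at 2.93, 11.6, 3.30 and 4.71 CPM in the kidney ones. The groups were far apart, with a log2 fold change of 8.57 ± 0.48 (SE; by edgeR, adjusted p = 2.54e-07), which became 9.20 without kidney replicate 2. C1ra, a protease that C1q carries, was at 38.99, 33.5, 28.95 and 36.5 CPM in the capsule and 1.55, 1.90, 1.92 and 1.52 CPM in the kidney (4.54 ± 0.16 on the log2 scale, edgeR adjusted p = 9.74e-09). Its partner C1s1 was at 4.25, 2.27, 3.44 and 5.11 CPM against 0.110, 0.116, 0.220 and 0.221 CPM (4.70 ± 0.42, edgeR adjusted p = 7.06e-06). No library of one group reached the other for either protease.

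The C1q chains differed less. C1qa stood at 3904, 3861, 3262 and 3402 CPM in capsule macrophages and at 2357, 2496, 2377 and 2773 CPM in kidney macrophages, a log2 fold change of 0.74 ± 0.09 (by edgeR, adjusted p = 8.38e-05). C1qc, at 5788, 5554, 4821 and 5083 against 3264, 3596, 3402 and 3968 CPM, rose by 0.79 ± 0.10 (edgeR adjusted p = 5.95e-05), and for both genes the groups did not overlap. C1qb overlapped between the groups, at 6911, 6492, 5515 and 5814 against 5319, 5545, 5761 and 6083 CPM. Its log2 fold change of 0.33 ± 0.09 (edgeR adjusted p = 0.00921) fell to 0.12 (adjusted p = 0.203) with unscaled library totals, a setting that moved the median of all genes from -0.03 to -0.24. In one fit of all 22 libraries the C1qb call was also lost, at an adjusted p of 0.219. C2 was at 0.618, 0.345, 0.560 and 0.687 against 0.110, 0.139, 0.188 and 0.401 CPM. Its rise of 1.57 ± 0.54 lost its call without an expression filter (edgeR adjusted p = 0.0669) and when any of 6 of the 8 libraries was left out. C4a, annotated as a processed transcript, was under 1 CPM in all 8 libraries.

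Among the genes of the alternative pathway all 4 rose. Cfp, the gene for properdin, which stabilises the C3 convertase, was at 3013, 3147, 2615 and 2440 CPM in the capsule and at 116, 135, 121 and 143 CPM in the kidney, a log2 fold change of 4.65 ± 0.13 (by edgeR, adjusted p = 2.38e-09). C3, at 274, 314.5, 306 and 335 against 38.9, 40.4, 37.65 and 47.4 CPM, rose by 3.11 ± 0.11 (edgeR adjusted p = 1.23e-08). Both genes were thus well expressed in the capsule group and separated the groups completely. Cfd was at 11.9, 17.0, 27.7 and 26.0 CPM against 0.0657, 0.0232, 0 and 0.301 CPM, a log2 fold change of 7.73 ± 0.62 that became 9.37 without kidney replicate 4. Cfb, uncertain for its shared exons, was at 4.87, 6.29, 5.64 and 5.70 against 1.29, 1.02, 1.29 and 0.662 CPM, a log2 fold change of 2.62 ± 0.26.

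C6 showed the largest log2 fold change of any tested member. It was at 97.3, 136, 70.8 and 117 CPM in capsule macrophages and at 0.0876, 0.139, 0.408 and 0.0201 CPM in kidney macrophages, a log2 fold change of 9.71 ± 0.42 (by edgeR, adjusted p = 3.48e-08), or 10.51 without kidney replicate 3. C7, its partner in the terminal pathway, was at 20.5, 26.9, 33.4 and 36.4 against 0.788, 0.348, 0.157 and 0.160 CPM, a log2 fold change of 6.51 ± 0.43, or 7.20 without kidney replicate 1. The kidney libraries sat near the floor for both genes. C8g, the gamma chain of C8, was at 0.0749 to 1.31 against 1.48 to 2.82 CPM and did not pass (log2 fold change -1.71 ± 0.68, edgeR adjusted p = 0.0525), though it passed without capsule replicate 3 (-2.67). It also passed with unscaled totals (adjusted p = 0.0347 by edgeR), the 1 CPM filter (0.0373), DESeq2 (0.0288), limma-voom (0.00881) and all 22 libraries in one fit (0.0148), and the 4 capsule libraries lay below the 4 kidney ones.

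Results for the receptors were mixed. C5ar1, the receptor for the chemoattractant C5a, was at 1512, 1517, 1314 and 1540 CPM in the capsule against 493, 530.5, 470.0 and 555 CPM in the kidney, a log2 fold change of 1.73 ± 0.09 (by edgeR, adjusted p = 2.03e-07). Vsig4, also known as CRIg, the C3b receptor of resident macrophages, was at 13.4, 34.3, 10.7 and 12.5 CPM against 0.460, 0.603, 0.911 and 0.261 CPM, a log2 fold change of 5.24 ± 0.50. Both separated the groups fully. C3ar1, the C3a receptor, overlapped at 666, 626, 549 and 662 against 553, 532, 585 and 510.5 CPM and rose by 0.41 ± 0.08, a call lost with unscaled totals (0.20, edgeR adjusted p = 0.0511) and in the fit of all 22 libraries (0.41, adjusted p = 0.113). C5ar2, the second C5a receptor, did not pass, at 25.4 to 34.0 against 27.4 to 32.4 CPM (0.19, 95% confidence interval -0.06 to 0.44), and was at -0.02 with unscaled totals. Cr2, the C3d receptor of B cells, was under 1 CPM in all 8 libraries, at 0.0562, 0.0740, 0.129 and 0.483 CPM in the capsule and 0.941, 0.928, 0.659 and 0.461 CPM in the kidney. Its call, at -1.80 ± 0.68, was lost without an expression filter (edgeR adjusted p = 0.0664), in the fit of all 22 libraries (0.0806) and when any of 7 of the 8 libraries was left out. Without the other one, capsule replicate 4, it was at -2.87 (edgeR adjusted p = 0.00282).

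Of the 7 regulators, 3 rose and 2 fell. Serping1, the inhibitor of C1r and C1s, was at 118.5, 84.7, 121 and 148 CPM in the capsule against 3.66, 3.52, 3.39 and 3.05 CPM, a log2 fold change of 5.33 ± 0.18 (by edgeR, adjusted p = 8.55e-09). Cd55, or decay-accelerating factor, rose by 4.69 ± 0.31, from 0.482, 0.603, 1.10 and 0.622 CPM in the kidney to 10.3, 19.6, 16.5 and 15.4 CPM in the capsule. The membrane regulators Cd46 and Cd59a fell, by 2.25 ± 0.26 and 1.92 ± 0.49 on the log2 scale (edgeR adjusted p = 3.87e-05 and 0.00700). Cd46 was at 0.730, 0.740, 0.861 and 0.839 CPM in the capsule and 4.51, 3.46, 4.40 and 5.15 CPM in the kidney. Cd59a was at 0.674, 1.73, 0.280 and 0.661 CPM against 4.05, 2.41, 4.14 and 3.99 CPM, and its difference grew to -2.53 without capsule replicate 2. Cr1l, or Crry, the main membrane regulator of rodents, stood at 74.2, 73.7, 78.2 and 67.5 against 72.7, 70.99, 70.02 and 76.3 CPM, which overlap. Its log2 fold change of 0.23 lost its call with unscaled totals (0.02, edgeR adjusted p = 0.852), without an expression filter (0.0676) and when any of 5 of the 8 libraries was left out. Clu was at 9.20, 20.02, 13.4 and 5.49 CPM against 27.6, 19.7, 31.5 and 19.1 CPM and did not pass (-0.81, edgeR adjusted p = 0.0591). It passed with unscaled totals (-1.03, edgeR adjusted p = 0.0264), the 1 CPM filter (0.0497), DESeq2 (0.0242), limma-voom (0.0198) and without capsule replicate 2 (-1.17, 0.00643).

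In the lectin pathway only Masp1 and Masp2 could be tested, and Masp1, a protease of the lectin complexes, fell by 4.29 ± 0.86 on the log2 scale (edgeR adjusted p = 0.00168). It was at 0, 0.197, 1.74 and 0.280 CPM in the capsule and at 13.5, 14.8, 12.3 and 9.87 CPM in the kidney, and the difference was -6.17 without capsule replicate 3. Mbl1, a mannose-binding lectin, was at 0 counts in all 4 capsule libraries and at 0.221 to 1.13 CPM in the kidney. With a floor of 3 counts per library, the capsule lay at least 8.14-fold below the kidney mean of 0.621 CPM.

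Markers of other cells moved with this comparison. Of the 10 fibroblast markers 9 were tested and all 9 were higher in capsule macrophages, with sums of 624 to 908 CPM against 13.9 to 20.8 CPM in the kidney and Dpep1 at 0 in both. The 8 proximal tubule markers summed to 16.5 to 140 CPM in the capsule and 1533 to 2847 CPM in the kidney, with 7 of 8 lower in the capsule. Of the 8 adipocyte markers 6 were tested, with 5 higher and 1 lower in the capsule and a median log2 fold change of 5.16. Their sums were nonetheless lower there, at 38.45 to 76.94 CPM against 129.5 to 140.3 CPM in the kidney. The 10 macrophage markers were also uneven, with 8 higher and 2 lower in the capsule. The part of these cells in the complement differences was not tested. In bulk samples fewer cells of a type and less RNA per cell cannot be told apart. Measured against capsule tissue, the fibroblast sum of young RCAMs was 6.12% of the young tissue level. C1s1 (0.684%), Serping1 (4.92%), C3 (10.6%), C7 (11.1%) and C1ra (23.7%) of young RCAMs were also below their tissue levels, whereas C6 (372%), C4b (808%) and Cfp (1497%) were above them.

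Of 28 further complement genes on a list, 11 were tested between the macrophage groups, and 5 were higher and 3 lower in the capsule. C1rl (2.03), Lrp1 (0.87), Calr (0.82) and Itgb2 (0.44) were among the genes that rose on the log2 scale. Itgax, the alpha chain of complement receptor 4, fell by 2.56 ± 0.11, with Susd4 (-1.90) and Cpn1 (-3.82) also lower.

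**Figure D3:**
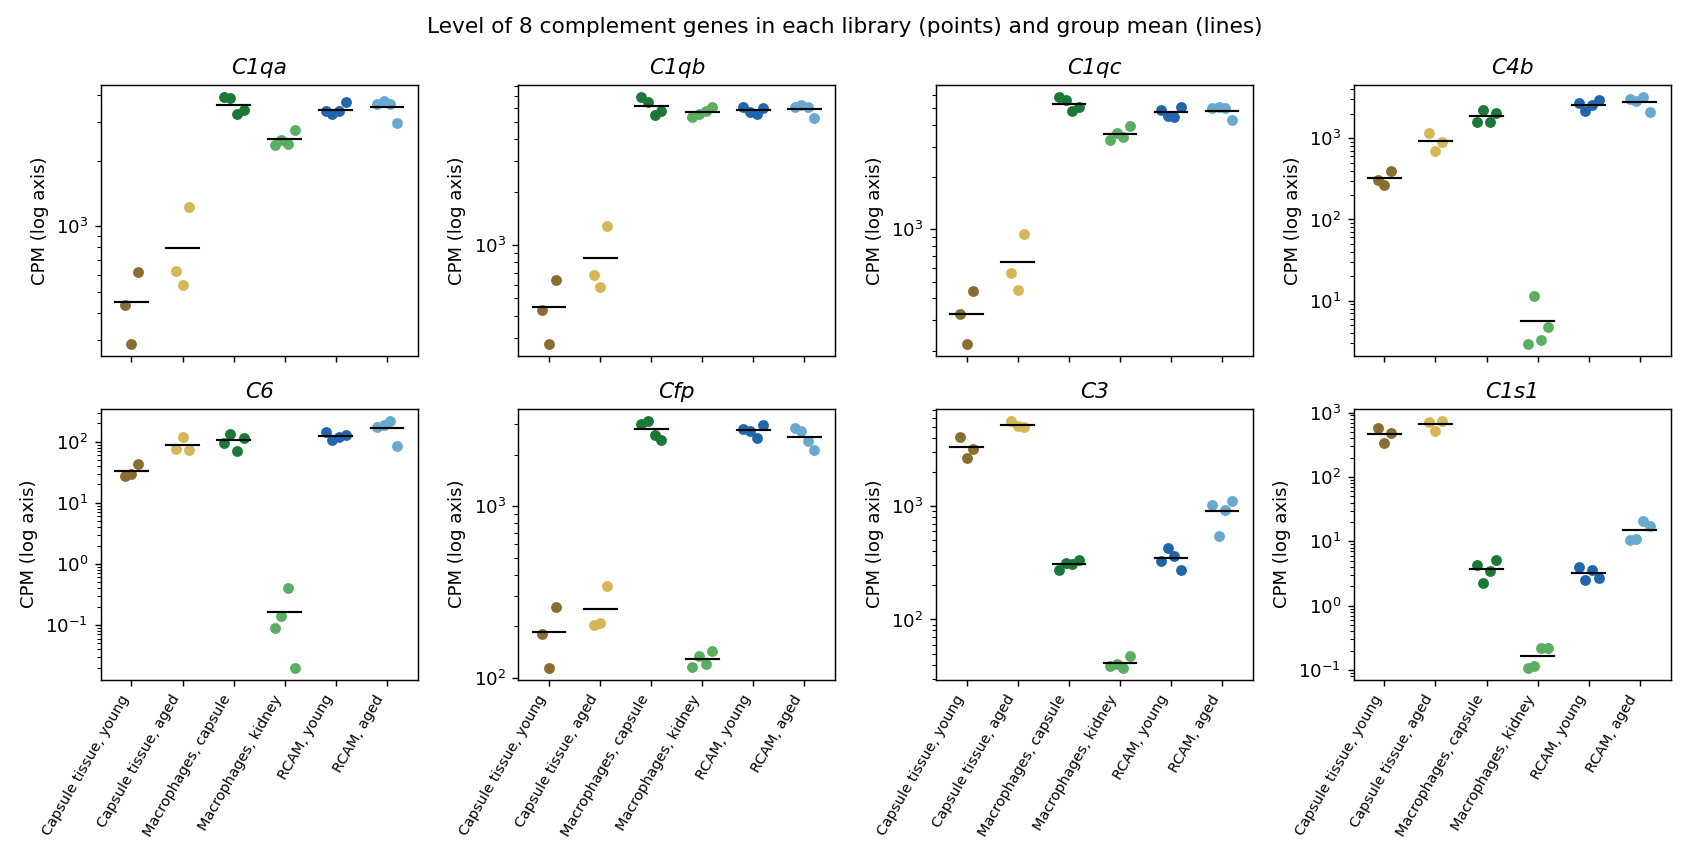
Level of C1qa, C1qb, C1qc, C4b, C6, Cfp, C3 and C1s1 in every library, as CPM on a log axis whose range differs by panel; points are libraries and black lines are group means. C4b, C6 and Cfp of kidney macrophages lie far below those of capsule macrophages and RCAMs, while C3 and C1s1 are highest in capsule tissue; C6 has no library at 0.

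Young RCAMs were then set against young capsule tissue, to see which members stood above the tissue level, the labels giving renal capsule as the source of both. C1q, C4b, Cfp, C6, C3ar1, C5ar1, C5ar2 and Vsig4 were higher in RCAMs, and the proteases C1ra and C1s1, C3, Cfd, C7 and most regulators were higher in tissue. Of 32 members tested, 13 were higher and 13 lower in RCAMs, among 17491 genes of which 35.2% were higher and 40.6% lower by the same edgeR rule. The groups did not overlap for 12 members that were higher and 14 that were lower, as for 30.6% and 45.7% of all genes. The median of the members was -0.64, also with genes at 0 set to their bound, against -0.14 for all genes. Another scaling (RLE) moved the latter to -0.25 and unscaled totals to -0.40. Without the adrenal-bearing young library the counts were again 13 and 13, though Cd46 was no longer among the calls (edgeR adjusted p = 0.0746).

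C1qb was at 430, 276 and 635 CPM in young tissue and at 6077, 5704, 5553 and 6044 CPM in young RCAMs, a log2 fold change of 3.97 ± 0.31 (by edgeR, adjusted p = 9.80e-06). The anaphylatoxin receptors C5ar1 (5.55 ± 0.29), C5ar2 (4.47 ± 0.31) and C3ar1 (4.42 ± 0.32) showed the largest rises apart from Itgam. C4b rose by 3.28 ± 0.22, from 263 to 399 CPM in tissue to 2187 to 2966 CPM in RCAMs. Cfp rose by 4.17 ± 0.31, from 115 to 260 to 2498 to 2994 CPM, and C6 by 2.16 ± 0.21, from 27.3 to 43.2 to 106 to 144 CPM. None of these genes overlapped between the groups.

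Tissue had the larger part of the serum-type inhibitors and of adipsin. Cfd was at 9652, 14052 and 6883 CPM in young tissue and at 16.9, 8.02, 23.9 and 6.05 CPM in RCAMs, a log2 fold change of -9.28 ± 0.63 (by edgeR, adjusted p = 4.56e-06). The 8 adipocyte markers summed to 10154 to 20665 CPM in young tissue and 36.8 to 55.7 CPM in young RCAMs, and their part in the Cfd difference was not tested. C1s1 was at 332 to 584 against 2.53 to 4.04 CPM (-6.92 ± 0.28), Serping1 at 993 to 2044 against 56.5 to 99.8 CPM (-4.08 ± 0.30), C3 at 2660 to 4086 against 273 to 430.0 CPM (-2.98 ± 0.21) and C7 at 153 to 298 against 14.8 to 44.4 CPM (-2.91 ± 0.36). Cd59a, which blocks the last step of the pore, fell from 34.8 to 68.9 CPM to 0.257 to 0.531 CPM (-6.74 ± 0.33). C8a was at 1.83 to 8.11 CPM in tissue and at 0 counts in all 4 RCAM libraries. With a floor of 3 counts per library, which covers counting error only, RCAMs lay at least 83.3-fold below the tissue mean of 5.01 CPM.

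Cr1l overlapped between the groups, at 66.9 to 74.3 CPM in tissue and 66.9 to 74.8 CPM in RCAMs. Its small positive log2 fold change of 0.29 lost its call with RLE scaling (0.18, edgeR adjusted p = 0.126), with DESeq2 (0.102), with unscaled totals (0.02, adjusted p = 0.844) and without young tissue replicate 3 (0.0515). Cd46, at 0.316 to 0.680 against 0.688 to 1.68 CPM, lost its call with either of those scalings, without an expression filter and when any of 5 of the 7 libraries was left out. The log2 fold change of Vsig4 was 4.15 and became 4.92 without young tissue replicate 3. That of Clu was -4.55 and became -6.05 without RCAM replicate 1. Among the further complement genes, ficolin A (Fcna, a lectin pathway recognition protein) was at 155 to 306 CPM in the 6 tissue libraries and at 0 counts in all 16 macrophage and RCAM libraries. Cpn2 and Ptx3 were likewise at 0 counts in all 16. As the kit cannot be told apart from this difference, the 0 counts are not read as absence of these RNAs from the cells.

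Aged and young RCAMs were compared to ask which members change with age in these libraries. C1s1, Cd55, Serping1 and C3 were higher in aged RCAMs, while the C1q chains, C4b and Cfp did not pass and had narrow intervals around 0. Of 28 members tested, 5 were higher and 0 lower (edgeR adjusted p under 0.05 over 15182 genes), against 3.43% higher and 1.38% lower among all genes tested. At an unadjusted p under 0.05 there were 9 higher and 1 lower, with 10.1% and 7.33% of all genes. The groups did not overlap for 6 members that were higher and 1 that was lower, against 7.55% and 3.98% of all genes. DESeq2 called 1 member lower, Cd46, and also called more of all genes lower than edgeR did. The median of the members was 0.29, against -0.01 for all genes.

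**Figure D4:**
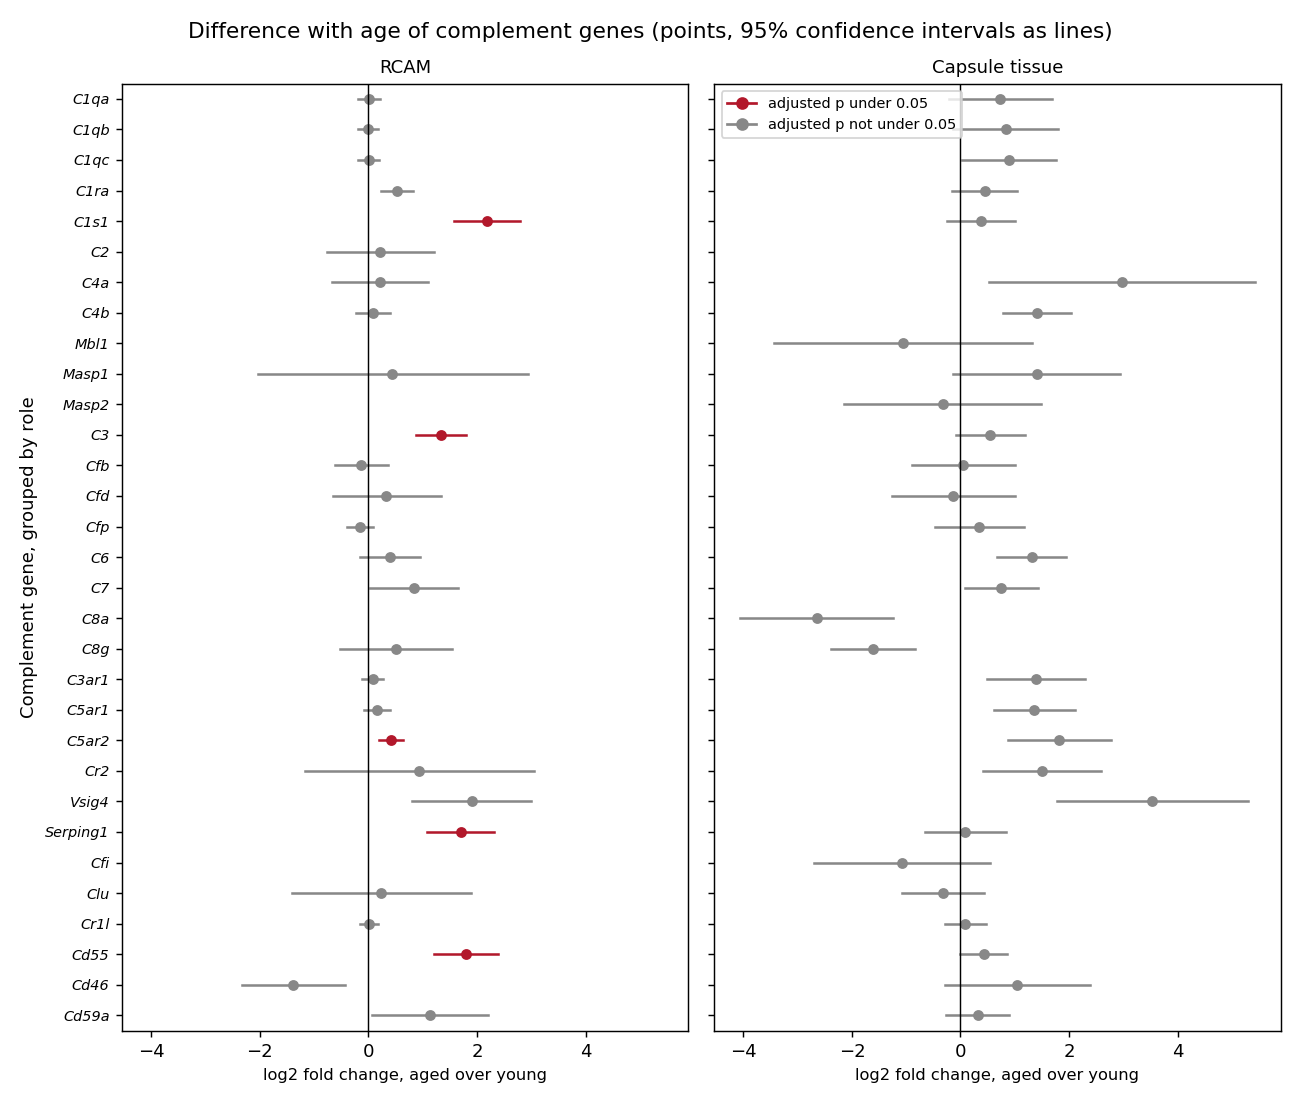
Log2 fold change of complement genes, aged over young, in RCAMs (left) and capsule tissue (right), on 1 scale, with 95% confidence intervals as lines and genes grouped by role; red marks an adjusted p under 0.05 and a blank row a gene not tested in that fit. C1s1, C3, C5ar2, Serping1 and Cd55 are red in RCAMs, and no gene is red in tissue.

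C1s1 was at 4.04, 2.53, 3.56 and 2.65 CPM in young RCAMs and at 10.4, 10.7, 20.5 and 17.6 CPM in aged RCAMs, a log2 fold change of 2.18 ± 0.27 (by edgeR, adjusted p = 0.00268). Every aged library lay above every young one. Its partner protease C1ra was at 35.6 to 39.6 against 45.2 to 67.2 CPM, again without overlap, and just missed the threshold (0.53 ± 0.13, edgeR adjusted p = 0.0524). It passed with DESeq2 (adjusted p = 0.00451), with unscaled totals, with a filter of 1 CPM, and without aged replicate 1 or without aged replicate 2 (adjusted p = 0.0397 and 0.0345).

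C3 was at 329, 430.0, 364 and 273 CPM in young RCAMs and at 1029, 539, 929 and 1099 CPM in aged RCAMs, a log2 fold change of 1.34 ± 0.20 (by edgeR, adjusted p = 0.00598). Serping1, at 89.1, 56.5, 99.8 and 61.2 CPM against 172.5, 167, 333 and 340 CPM, rose by 1.70 ± 0.28 (edgeR adjusted p = 0.00874). Cd55, at 36.7, 18.5, 22.6 and 20.8 CPM against 75.6, 84.7, 124 and 64.2 CPM, rose by 1.79 ± 0.26 (edgeR adjusted p = 0.00559). For these genes too the groups did not overlap, and the calls on C1s1, C3, Serping1 and Cd55 held when each library was left out in turn. Their aged levels remained well below those of young tissue for C1s1, C3 and Serping1, while Cd55 of aged RCAMs, at 87.0 ± 25.8 CPM (SD, n = 4), was at the level of young tissue, 85.5 ± 15.5 CPM (n = 3).

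C5ar2 rose slightly, from 36.9, 31.7, 35.7 and 36.2 CPM to 43.1, 52.0, 48.0 and 47.3 CPM, a log2 fold change of 0.42 ± 0.10 (by edgeR, adjusted p = 0.0386). The groups did not overlap, but the edgeR call was lost when any of 6 of the 8 libraries was left out (edgeR adjusted p = 0.0788 to 0.0909) and in the fit of all 22 libraries (0.257). The other anaphylatoxin receptors did not pass, C5ar1 at 0.15 (95% confidence interval -0.09 to 0.39) and C3ar1 at 0.08 (-0.12 to 0.27). Vsig4 was at 14.2, 16.2, 42.3 and 17.6 CPM in young and 183, 56.7, 59.5 and 41.6 CPM in aged RCAMs. The groups overlapped by 1 library on each side, and the log2 fold change of 1.90 ± 0.49 did not pass (edgeR adjusted p = 0.0568), though it did without young replicate 3 (2.37, adjusted p = 0.0365), with DESeq2 (0.0165), without an expression filter (0.0456) and with the 1 CPM filter (0.0370).

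The most abundant members did not pass with age in RCAMs. C1qa was at 3379, 3270, 3360 and 3705 CPM in young and at 3650, 3755, 3642 and 2976 CPM in aged libraries. Log2 fold changes were 0.01 for C1qa (95% confidence interval -0.19 to 0.21), -0.01 for C1qb (-0.19 to 0.18) and 0.01 for C1qc (-0.19 to 0.20), so their sign turned with the setting. C4b, at 2187 to 2966 against 2097 to 3193 CPM, was at 0.09 (-0.23 to 0.40) and Cfp at -0.15 (-0.40 to 0.09). C6 was at 0.40 (-0.15 to 0.95) and passed without aged replicate 4 (0.62, edgeR adjusted p = 0.0396), while C7 was at 0.84 with an edgeR adjusted p of 0.273. Cd46, which shares exon bases with an antisense gene, was lower in every aged library, at 0.311 to 0.588 against 0.688 to 1.68 CPM, without passing (-1.38 ± 0.42, edgeR adjusted p = 0.104), though it passed with DESeq2 (0.0470) and in the fit of all 22 libraries (0.0391).

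Fibroblast markers moved with the genes that rose. Their sum was 645, 545, 752 and 744 CPM in young RCAMs and 1287, 936, 2303 and 2669 CPM in aged RCAMs, with 5 of 9 tested markers higher, 9 of 9 at an unadjusted p under 0.05, and Dpep1 at 0 in both groups. The aged libraries with the largest sums, replicates 3 and 4, were also the highest for C1s1 and Serping1, as the plot against the fibroblast sum shows. Among aged libraries C3 was highest where the sum was largest and lowest where it was smallest, but higher in replicate 1 than in replicate 3. Cd55 was highest in replicate 3 and lowest in replicate 4. The macrophage sum hardly differed, at 23027 to 25354 CPM in young and 24304 to 26423 CPM in aged RCAMs, with 0 of 10 markers past the threshold. B cell markers summed to 18.7 to 30.96 CPM in young and 55.0 to 70.7 CPM in aged libraries, with 4 of 7 tested markers higher and Ms4a1 at 0 in all 8. Markers of follicular dendritic cells, a complement receptor-bearing stromal type, summed to 28.6 to 63.9 CPM in young and 790.5, 143, 158 and 188 CPM in aged RCAMs. The B cell and follicular dendritic cell lists both hold Cr2, a member, and the macrophage list holds Itgam. The part of these cells in the 5 calls was not tested.

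**Figure D5:**
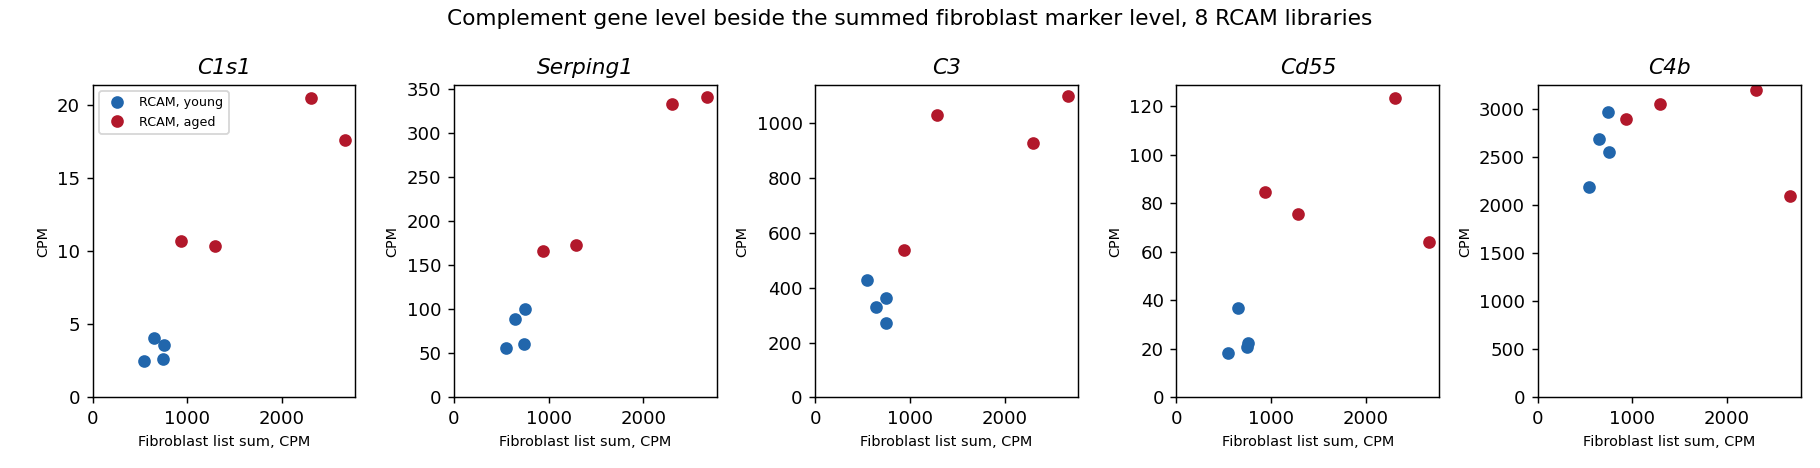
Level of C1s1, Serping1, C3, Cd55 and C4b (y axes, CPM) against the summed CPM of 10 fibroblast markers (x axes) in the 8 RCAM libraries; each point is 1 library, blue young and red aged. The aged libraries lie right of the young ones in every panel and above them for the first 4 genes, while C4b spans the same range in both.

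Of the 28 further complement genes, 13 were tested with age in RCAMs and 1 was higher, Cd93, a C1q-binding receptor candidate of myeloid and endothelial cells. It rose from 33.5 to 42.9 CPM to 74.3 to 89.2 CPM, a log2 fold change of 1.11 ± 0.09 (by edgeR, adjusted p = 4.89e-04).

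Aged capsule tissue was compared with young capsule tissue as the last of the study's contrasts. No member passed the edgeR threshold, but 5 receptors, C4b and C6 were higher in every aged library than in every young one, and C8a and C8g lower. Of 30 members tested, 0 were called in either direction, where 0.153% of 16350 genes were called higher and 0.0856% lower. At an unadjusted p under 0.05 there were 11 higher and 2 lower, against 10.9% and 11.7% of all genes. DESeq2 called 8 higher and 2 lower, limma-voom called 0, and edgeR without both adrenal-bearing libraries called 2 higher and 1 lower. With the replicate number as a block, edgeR called 10 higher and 2 lower, though no label says that these numbers pair libraries. DESeq2, the block and the fit without both adrenal-bearing libraries also called far more of all genes than the main fit. Those counts of all genes are given below with the processing alternatives. The median of the members was 0.50, against 0.03 for all genes. There were 10 members higher and 2 lower at an unadjusted p under 0.05 with groups that did not overlap, where 9.80% and 7.91% of all genes were.

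All 5 tested receptors belonged to that set. C3ar1 was at 46.1, 24.2 and 59.5 CPM in young and 116, 76.2 and 174 CPM in aged tissue, a log2 fold change of 1.39 ± 0.39 (by edgeR, adjusted p = 0.110), or 1.36 (0.0611) without both adrenal-bearing libraries. C5ar1, at 31.6, 18.9 and 37.5 against 72.1, 58.4 and 112 CPM, was at 1.36 ± 0.33 (edgeR adjusted p = 0.0907), and C5ar2, at 2.43, 0.940 and 2.34 against 8.004, 5.14 and 8.67 CPM, at 1.82 ± 0.41 (0.0858). Without those libraries they were at 1.32 (edgeR adjusted p = 0.0634) and 1.70 (0.0507). Each aged library exceeded each young one. Vsig4 was at 1.55, 0.235 and 2.70 CPM against 10.8, 13.3 and 31.3 CPM, a log2 fold change of 3.53 ± 0.76 (by edgeR, adjusted p = 0.0827) that passed without both adrenal-bearing libraries (3.21, adjusted p = 0.0389). Cr2 was at 0.486, 0.423 and 0.992 against 2.08, 2.12 and 1.66 CPM, with a log2 fold change of 1.5 ± 0.47 (by edgeR, adjusted p = 0.125), or 1.21 (0.360) without both adrenal-bearing libraries.

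C4b was at 302.5, 263 and 399 CPM in young tissue and 1173, 706 and 909 CPM in aged tissue. Its log2 fold change of 1.41 ± 0.27 had an edgeR adjusted p of 0.0711, and 1.45 with an adjusted p of 0.0456 without both adrenal-bearing libraries. C6, at 27.3, 29.7 and 43.2 against 75.3, 121 and 73.0 CPM, was at 1.31 ± 0.27 (edgeR adjusted p = 0.0813), and 0.96 (0.125) without those libraries. C7, at 298, 153 and 258 against 525.5, 321 and 446 CPM, was at 0.75 ± 0.29 (edgeR adjusted p = 0.179), and 0.70 (0.169) without them. For C4b, C6 and C7 the age groups did not overlap. C1qc was at 323, 218 and 439 against 559.5, 445 and 946 CPM (0.89 ± 0.38, edgeR adjusted p = 0.209), and at 0.89 (0.242) without them. Cd55 was at 103, 77.4 and 75.85 against 115, 128 and 128 CPM (0.43 ± 0.18, edgeR adjusted p = 0.220), and at 0.35 (0.494) without them. These 5 genes and the receptors make up the 10. C4a, the other gene with a higher level at that p, overlapped between the ages, at 0.0901 to 0.517 against 0.369 to 5.33 CPM. Its highest value at each age, 0.517 and 5.33 CPM, was that of the adrenal-bearing library.

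C8a and C8g, chains of C8, were the members lower in aged tissue. C8a was at 8.11, 1.83 and 5.09 CPM in young and 0.440, 0.991 and 1.11 CPM in aged tissue (-2.65 ± 0.61, edgeR adjusted p = 0.0875, and 0.0375 without both adrenal-bearing libraries). C8g was at 9.81, 10.7 and 12.0 CPM against 2.57, 3.51 and 5.32 CPM (-1.62 ± 0.34, edgeR adjusted p = 0.0802, and -1.57 with 0.106 without them). C1qa, at 289 to 621 against 536.5 to 1221 CPM, overlapped between the ages and gave 0.73 (95% confidence interval -0.22 to 1.68), and 0.71 without both adrenal-bearing libraries. C3 did not overlap, at 2660 to 4086 against 4951 to 5643 CPM, and gave 0.55 (-0.09 to 1.18), and 0.45 without them.

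Cell type markers differed between the ages of tissue too. Macrophage markers summed to 1928, 1278 and 2397 CPM in young and 3797, 2670 and 6862 CPM in aged tissue, with 6 of 9 tested at an unadjusted p under 0.05 and higher. Proximal tubule markers summed to 16983, 6694 and 26386 against 1980, 1329 and 6474 CPM, with 8 of 8 lower at that level, and B cell markers to 122 to 173 against 220 to 273 CPM. Fibroblast sums overlapped, at 8226 to 13541 and 8365 to 12215 CPM. Their part in the complement values was not tested.

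Whether the difference with age itself differed between RCAMs and tissue was tested as an interaction over all 14 libraries. Of 33 members tested, 3 had a larger and 2 a smaller difference in RCAMs than in tissue (edgeR adjusted p under 0.05 over 18856 genes), against 3.12% and 1.93% of all genes. Of all called genes 61.9% had the larger difference in RCAMs, and 45.0% with unscaled totals. C1s1 differed by 1.84 ± 0.38 (edgeR adjusted p = 0.0224), Serping1 by 1.66 ± 0.44 (0.0461) and Cd55 by 1.4 ± 0.36 (0.0424). C4b differed by -1.28 ± 0.28 (edgeR adjusted p = 0.0261) and C5ar2 by -1.36 ± 0.34 (0.0371). The Serping1, Cd55 and C5ar2 calls were lost when any of 10, 11 and 9 of the 14 libraries was left out. Serping1 was also lost with RLE scaling (edgeR adjusted p = 0.0538), unscaled totals (0.0622) and limma-voom (0.0521), and C5ar2 with limma-voom (0.0643). The calls on C1s1 and C4b were lost on leaving out a library in 2 cases each, without young tissue replicate 1 (edgeR adjusted p = 0.0516 and 0.0597) and without aged tissue replicate 1 (0.0621 and 0.0540). Without both adrenal-bearing libraries C3ar1 (-1.33) and C5ar1 (-1.22) were called as well, as they were by DESeq2 and in the fit of all 22 libraries, and Serping1 (edgeR adjusted p = 0.0658) and Cd55 (0.0923) were not.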

How the data were processed

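RNA of 22 libraries was sequenced on single-end 50-base reads after either of 2 kits, per the labels' protocols. The authors deposited raw read counts for 52636 Ensembl genes per library, per the file headers, on build GRCm38, per the submitters' processing notes. No source used here names the aligner, the counting tool or whether strand was used. Symbols, positions and exon lengths came from GENCODE M21 (52489 genes matched, 147 not). Levels are CPM of the library total, or CPM per kb of merged exon where genes are compared. Each comparison was fitted with edgeR 4.0.16 in R 4.3.3 (TMM scaling, filterByExpr, quasi-likelihood F test, no replicate block) on its own groups. P-values were adjusted by Benjamini-Hochberg over all genes tested, at a threshold of 0.05. Errors are SD for levels and SE for log2 fold changes, and intervals are 95%. The fit was tested on simulated counts.

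Alternatives were RLE scaling, unscaled totals, no filter, a filter of 1 CPM, DESeq2 1.42.0, limma-voom 3.58.1, a replicate block, all libraries in one fit and leaving out each library. Fits without the adrenal-bearing libraries were added after seeing the data. The members and gene lists were chosen with earlier results of these data known. Library values are given, in the comparison concerned, for members past the threshold in one of the study's comparisons (Itgam, whose count is uncertain, by range), for those with groups apart and an unadjusted p under 0.05 in capsule tissue, and in at least 1 comparison for C1qa, C1qb, C1qc, C3 and C4b. Other values are given by range, and genes of the further list are named where they passed in a comparison, except 1 that is not reported here. No pair of libraries in a group was a duplicate: at least 19721 genes had unequal counts.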

Additional observations from a re-analysis of the deposited data

Results flagged for a closer look

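In groups of 4 libraries, 1 library stood far from the other 3 for 6 of the members tested this way, in 9 of 80 combinations of gene and group, where chance gives about 1 in 20. Vsig4 was high in 1 library of each of 3 groups: 34.3 CPM in capsule macrophage replicate 2 (others 10.7 to 13.4), 42.3 CPM in young RCAM replicate 3 (others 14.2 to 17.6) and 183 CPM in aged RCAM replicate 1 (others 41.6 to 59.5). Aged RCAM replicate 1 also held the highest sum of follicular dendritic cell markers, 790.5 CPM against 143 to 188 CPM in the others. Clu was high at 14.3 CPM in young RCAM replicate 1 (others 0.802 to 2.93) and 8.15 CPM in aged RCAM replicate 1 (others 5.14 to 5.55). C1qa was low at 2976 CPM in aged RCAM replicate 4 (others 3642 to 3755), and C1qc at 4298 CPM in that library (others 4994 to 5083). C5ar1 was low at 1314 CPM in capsule macrophage replicate 3 (others 1512 to 1540), and Cd59a at 2.41 CPM in kidney macrophage replicate 2 (others 3.99 to 4.14).

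The interaction test called the difference with age unlike in RCAMs and in capsule tissue for 5 of 33 members. It was larger in RCAMs for 3 and smaller for 2, against 3.12% and 1.93% of all genes. RCAM minus tissue, the log2 difference was 1.84 for C1s1, 1.66 for Serping1, 1.4 for Cd55, -1.28 for C4b and -1.36 for C5ar2. The Serping1, Cd55 and C5ar2 calls were lost when any of 10, 11 and 9 of the 14 libraries was left out. Those on C1s1 and C4b were lost in 2 cases each. Without both adrenal-bearing libraries Serping1 and Cd55 were not called. Fibroblast markers also had a larger difference in RCAMs, with 4 of 9 tested past the threshold and a median of 1.7, and macrophage markers a median of -0.8 with 1 of 10 past it. The part of these cells was not tested.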

How the results depend on the processing

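Of the alternatives run on members named in the text, 237 of 271 left the direction and the call in place for RCAM age, 183 of 225 for tissue age, 386 of 429 for the macrophages, 393 of 407 for young RCAMs against tissue and 129 of 184 for the interaction. In tissue, where 25 genes were called higher and 14 lower with 0 members, the fit without an expression filter called 403 and 692 genes with 6 and 2 members, DESeq2 754 and 1122 with 8 and 2, and all 22 libraries in one fit 2293 and 804 with 12 members higher. The 1 CPM filter called 23 genes lower and limma-voom 14 higher, and without both adrenal-bearing libraries there were 176 and 311 genes with 2 members higher and 1 lower. For RCAM age (520 higher, 209 lower, 5 and 0 members), DESeq2 called 937 and 504 genes with 1 member lower, and one fit of all libraries 114 genes lower with 1 member lower. For the macrophages (4281 and 4420 genes, 20 and 4 members), limma-voom called 7 members lower. For the interaction (589 and 363 genes, 3 and 2 members), unscaled totals called 563 genes lower, DESeq2 1304 and 1020 with 5 and 5 members, limma-voom 1 member lower, one fit of all libraries 1488 genes lower with 6 members lower, and the fit without adrenal-bearing libraries 1 and 4 members. The cause of these shifts was not tested.

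Leaving out each library in turn gave 0 to 93 genes higher and 0 to 324 lower in tissue (members 0 to 0 and 0 to 1), 3869 to 4238 and 3876 to 4582 in macrophages (18 to 20 and 3 to 6), 340 to 497 and 98 to 153 for RCAM age (4 to 6 and 0 to 0), 5791 to 6060 and 6650 to 7011 for RCAMs against tissue (12 to 13 and 12 to 13), and 112 to 987 and 114 to 607 for the interaction (0 to 4 and 0 to 4). With a replicate block, tissue age had 943 and 1253 genes with 10 and 2 members, RCAM age 280 and 56 genes, where C5ar2 lost its call (edgeR adjusted p = 0.156), and the interaction 6 members lower, with Cd55 lost (0.0504). In the macrophages the block ended the calls on Cr1l (0.23, edgeR adjusted p = 0.0721) and Cr2 (-2.20, 0.0640), and C8g (-2.15, 0.0456) and Clu (-0.94, 0.0304) passed. The numbers were not taken to pair the samples. In tissue the correlation of deviations between same-numbered libraries was 0.099, 0.353 and 0.31, each the best match of that library, and elsewhere it was -0.108 to 0.036. The sign turned for C5ar2 in the macrophages (-0.02 with unscaled totals) and, for RCAM age, for C1qb (0.02 with unscaled totals, 0.01 without a filter, 0 with the 1 CPM filter and -0.04 to 0.05 without a library), C1qa (-0.03 to 0.09 without a library) and C1qc (-0.03 to 0.07). With TMM-scaled totals the sum of the 3 C1q chains was 15610 (young) and 15650 CPM (aged) in RCAMs, against 14010 and 14270, and C3 was at 4591 CPM in aged tissue, against 5210. Depth limits what can be said of C8b, C9, Mbl2, Hc and Cfi, whose counts were near the floor.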

Other observations

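The further complement genes showed levels that the comparisons above did not describe. Cd93 was higher in each aged tissue library, at 92.5 to 126 CPM against 40.1 to 56.2 CPM, without passing in tissue (log2 fold change 1.01 ± 0.20, edgeR adjusted p = 0.0717), and its age difference was not shown to differ from that in RCAMs (0.14 ± 0.20). Itgb2, the common beta chain of complement receptors 3 and 4, was at 36.5 to 67.4 CPM in young and 89.9 to 220 CPM in aged tissue, and differed by -1.49 ± 0.38 in the interaction test (edgeR adjusted p = 0.0392). Itgax was highest in kidney macrophages at 320 to 351.5 CPM, against 42.0 to 119 CPM in capsule macrophages and RCAMs.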
